A study of Mus musculus with 16 samples.

Results

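Interferon-stimulated genes were described here by the accessibility of the chromatin around them. Of 45 such genes, 34 had at least 1 peak in the count table of the series, with 162 of its 82188 peaks. A peak belonged to the protein-coding gene whose annotated span lay nearest to the middle of the peak, at most 50 kb away. Peaks for Ifit1, Ifit3, Oas1a, Trim25, Ifi44, Eif2ak2, Tap1, Psmb8, Psmb9, Mx1 and Mx2 were not analysed here. The study measured accessibility with Omni-ATAC, an assay whose transposase cuts and tags accessible DNA, in spleen cells of C57BL/6 mice aged 8 to 10 weeks. The groups were Smarca4+/- (HET) CC, Smarca4+/+ (WT) CC, HET CB and WT CB, with 4 libraries each. The product of Smarca4 is BRG1, a motor subunit of BAF chromatin remodelers. By the genotype label HET cells keep an intact allele, while the design text of the series says knockout. Neither the structure of the mutant allele nor any Cre driver or sort gate is given in the labels, and CB and CC are read as centroblast and centrocyte, the germinal center B cells that divide and the ones that are selected. Whether the replicates are separate animals is not labelled, so each p-value here reflects only the spread among these samples, and that spread may be technical.

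Interferons bind receptors on the cell surface and activate JAK kinases, which phosphorylate STAT proteins. Type I interferon leads to a complex with STAT2 and IRF9 that binds interferon-stimulated response elements (ISRE), while type II interferon acts through gamma-activated sites (GAS). The genes switched on in this way include antiviral effectors, sensors of foreign RNA and DNA, ubiquitin-like modifiers and the transcription factors that amplify the response. B cells also carry the IRF family members IRF4 and IRF8, which bind composite elements of an ETS and an IRF site (EICE) together with PU.1.

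Promoter sequences were read to show which of these genes hold an ISRE core next to the start of transcription. The windows run from 250 bases before to 50 bases after the start, 5′ to 3′ on the strand of the gene, from RefSeq on GRCm38.p6, the assembly that mm10 denotes. Of the 34 genes with a peak, 27 had a window in the table. The ISRE core was searched as GAAANNGAAA, the EICE as GGAANNGAAA and the GAS as TTCNNNGAA, each on both strands. An ISRE core stood in 9 of the 27 members (33.3%), against 3.94% of all 17492 genes. An EICE stood in 4 of the 27 (14.8%), against 2.98% of all genes, and a GAS in 6 (22.2%), against 8.92%. Of the 13 ISRE core matches in member windows, 2 shared bases with a match of another motif. The capitals below mark the ISRE core on either strand. The first 4 windows are examples with an overlapping peak that was higher in CC than in CB in at least 1 genotype (Ifih1, not printed, is another). Those of Isg15 and Bst2 are printed because they hold more than 1 core beside a peak that did not pass the test. That of Zc3hav1 is printed because a peak at its start was called between genotypes in CC and it holds no core.
Rsad2: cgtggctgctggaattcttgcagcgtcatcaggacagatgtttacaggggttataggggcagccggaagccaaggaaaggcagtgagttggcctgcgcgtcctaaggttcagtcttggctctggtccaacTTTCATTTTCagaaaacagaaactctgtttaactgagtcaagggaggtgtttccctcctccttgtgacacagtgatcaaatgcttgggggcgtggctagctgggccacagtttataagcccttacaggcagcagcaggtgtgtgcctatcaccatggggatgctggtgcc
Oas3: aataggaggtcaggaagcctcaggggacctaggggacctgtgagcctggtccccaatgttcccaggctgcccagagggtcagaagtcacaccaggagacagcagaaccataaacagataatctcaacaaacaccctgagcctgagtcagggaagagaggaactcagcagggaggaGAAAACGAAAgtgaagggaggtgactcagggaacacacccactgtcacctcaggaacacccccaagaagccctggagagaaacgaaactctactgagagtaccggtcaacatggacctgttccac
Ddx58: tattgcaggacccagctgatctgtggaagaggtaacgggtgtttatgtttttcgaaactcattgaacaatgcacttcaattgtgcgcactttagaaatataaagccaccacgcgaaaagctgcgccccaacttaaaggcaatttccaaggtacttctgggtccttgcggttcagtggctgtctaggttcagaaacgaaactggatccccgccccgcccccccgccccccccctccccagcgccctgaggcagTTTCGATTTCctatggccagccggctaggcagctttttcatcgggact
Gbp3: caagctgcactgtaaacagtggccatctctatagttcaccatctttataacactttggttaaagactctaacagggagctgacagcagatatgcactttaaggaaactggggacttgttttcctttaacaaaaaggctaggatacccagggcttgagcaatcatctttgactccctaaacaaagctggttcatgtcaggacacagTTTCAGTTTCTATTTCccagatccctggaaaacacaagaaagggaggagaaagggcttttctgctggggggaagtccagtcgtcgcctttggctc
Isg15: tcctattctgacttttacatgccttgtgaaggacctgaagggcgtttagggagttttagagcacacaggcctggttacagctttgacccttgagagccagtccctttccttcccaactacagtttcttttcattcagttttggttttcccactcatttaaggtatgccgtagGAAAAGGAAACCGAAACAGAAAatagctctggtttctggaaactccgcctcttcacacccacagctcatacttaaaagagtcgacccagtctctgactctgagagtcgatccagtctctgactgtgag
Bst2: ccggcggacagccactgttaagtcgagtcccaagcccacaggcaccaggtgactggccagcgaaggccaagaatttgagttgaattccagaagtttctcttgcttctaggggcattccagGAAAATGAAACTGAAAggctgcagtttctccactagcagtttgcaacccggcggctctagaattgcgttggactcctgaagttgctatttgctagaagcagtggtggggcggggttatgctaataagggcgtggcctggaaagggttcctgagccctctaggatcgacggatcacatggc
Zc3hav1: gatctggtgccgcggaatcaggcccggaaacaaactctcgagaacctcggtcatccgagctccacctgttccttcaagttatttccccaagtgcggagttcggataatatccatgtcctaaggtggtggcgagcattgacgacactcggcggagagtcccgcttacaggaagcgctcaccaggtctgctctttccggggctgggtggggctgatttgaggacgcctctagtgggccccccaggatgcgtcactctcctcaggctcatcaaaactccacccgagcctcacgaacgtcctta

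The Rsad2 window lies at chr12:26456403-26456702 on the minus strand, and its core begins 120 bases before the start. The Oas3 window is chr5:120777610-120777909 on the minus strand with a core that begins 75 bases before the start. That of Ddx58 is chr4:40239776-40240075 on the minus strand, and its core begins 3 bases after the start. The Gbp3 window, the more upstream of the pair listed for this gene, is chr3:142559794-142560093 on the plus strand, with overlapping cores that begin 45 and 39 bases before the start. Isg15, at chr4:156200769-156201068 on the minus strand, has a run of 3 overlapping cores that begin 78, 72 and 66 bases before the start. Bst2, at chr8:71537423-71537722 on the minus strand, has cores that begin 130 and 124 bases before the start. The Zc3hav1 window is chr6:38354554-38354853 on the minus strand. The other members with a core were Gbp2, Ifih1 and Stat2. Of the 9 windows with a core, 8 overlapped a peak of the count table, and that of Stat2 did not. In HET cells an overlapping peak was higher in CC than in CB at 4 of the 9 genes (Ddx58, Gbp3, Oas3 and Rsad2) and lower at 0. In WT cells it was higher at 4 (Ddx58, Gbp3, Ifih1 and Rsad2) and lower at 0. Of the 18 members with a window and no core, 16 overlapped a peak. Such a peak was higher in CC at 6 and lower at 3 in HET cells, and higher at 8 and lower at 3 in WT cells. Of all peaks of the series within 1 kb of a start of their own gene, 28.6% were higher and 28.9% lower in HET cells. In WT cells these shares were 33.7% and 23.6%. The counts above are of genes and these shares are of peaks, and the windows with and without a core are too few to rank. A match of these letters is a description of the sequence and not evidence that a factor binds.

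Library totals were 5310327 to 7474760 counts in HET CC, 3494356 to 3750936 in WT CC, 38716281 to 51011923 in HET CB and 31696941 to 38798802 in WT CB. The CC libraries were thus far shallower, and the member peaks together held 6858 to 14700 counts in a CC library and 56232 to 93048 in a CB library. Libraries of odd and of even replicate number stood apart in 3 of the 4 groups: the mean chi-square per peak between libraries was 2.04 to 2.06 within and 2.54 to 2.69 across odd and even numbers in HET CC, 1.93 to 2.04 and 2.72 to 2.91 in HET CB, and 1.92 to 2.26 and 3.26 to 3.49 in WT CB, while in WT CC all pairs lay between 2.01 and 2.19. What the numbers share is not labelled. Values per library are CPM, the count of a feature relative to the total of its library, scaled by the trimmed mean of M-values (TMM), and a locus is the sum of its peaks. The member peaks summed to 1951 ± 46.4 CPM in HET CC and 2032 ± 45.9 CPM in WT CC, and to 1811 ± 4.53 CPM in HET CB and 1801 ± 26.4 CPM in WT CB (SD, n = 4 each). Every peak was 501 bases wide, so levels per peak can be set side by side. By mean CPM per peak in WT CB, Parp9 (45.7, with 1 peak), Irf7 (38.5, with 2) and Irf9 (33.9, with 1) stood highest, and Oas2 (2.62, with 2) and Oas3 (2.63, with 3) lowest. A mean per peak is lower where a locus has many weak peaks. By the highest single peak of a locus in WT CB, Sp100 (57.8 CPM), Zc3hav1 (43.5) and Parp9 (42.4) stood highest. Neither order was tested, and these are levels of open chromatin and not of transcripts.

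Between CC and CB the members split. In HET cells 14 of the 34 loci were higher in CC and 6 were lower, at an adjusted p below 0.05 in edgeR's quasi-likelihood test with Benjamini-Hochberg adjustment over all 15054 loci. In WT cells 17 were higher and 7 were lower. Most loci of the genome changed in this comparison: 62.8% of all loci were called in HET cells (31.1% higher, 31.7% lower) and 63.3% in WT cells (31.6% higher, 31.7% lower). The median log2 ratio of CC over CB was 0.14 over the members and -0.00 over all loci in HET cells, and 0.17 and -0.01 in WT cells. Both genotypes called 13 loci higher, which is 92.9% of the HET calls and 76.5% of the WT calls, and 5 loci lower, which is 83.3% and 71.4%. How many of all loci were called in both genotypes was not counted, so these shares have no background. The HET and WT comparisons share no library, but both come from the same fit, with a common scaling and a common estimate of the spread.

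**Figure D1:**
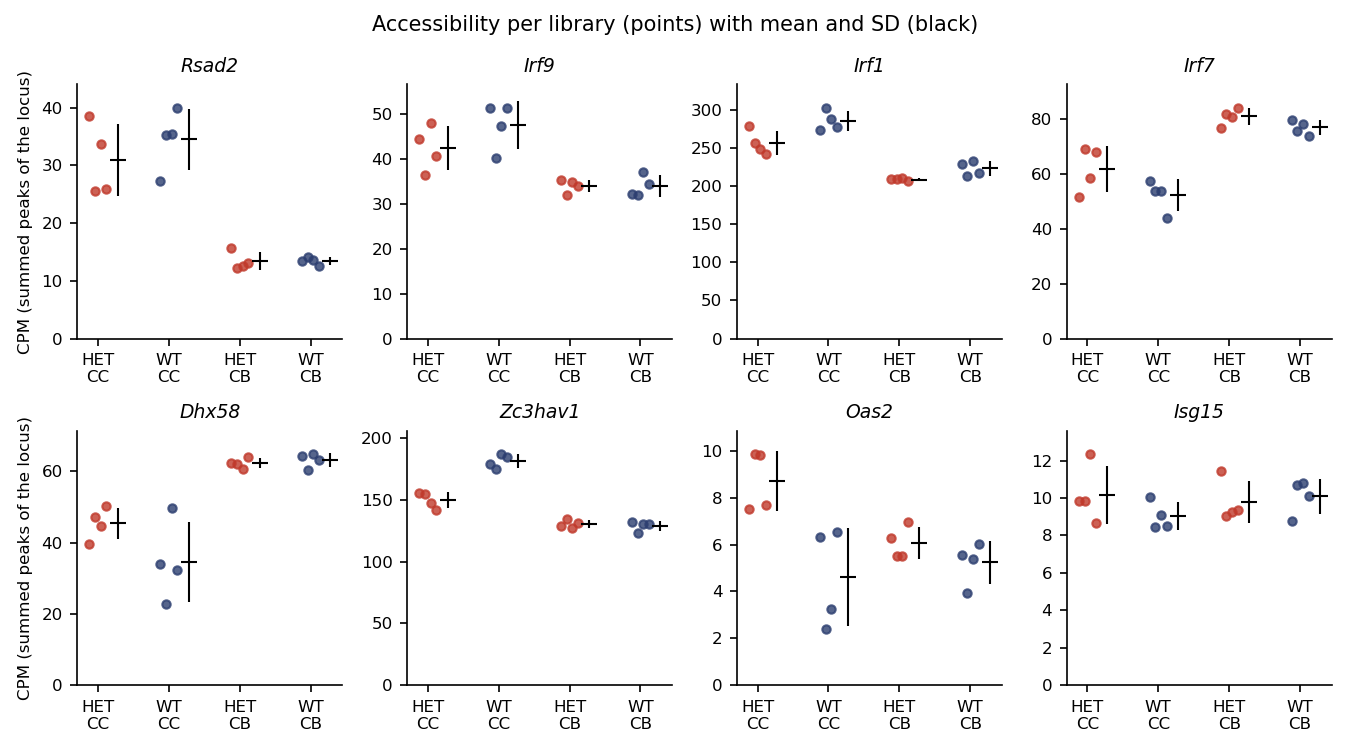
CPM of the summed peaks of 8 member loci in each library, with genotype and cell label on the horizontal axis; points are libraries (red HET, blue WT) and black bars the mean and SD of 4. Rsad2, Irf9 and Irf1 sit higher in CC, Irf7 and Dhx58 lower in CC, Zc3hav1 is lower in HET CC than in WT CC without overlap, and the groups of Isg15 overlap.

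Among the antiviral effectors, 7 of 11 loci were higher in CC and 2 were lower in HET cells, and the same numbers held in WT cells. The shares of all loci were 31.1% higher and 31.7% lower in HET, and 31.6% and 31.7% in WT. Rsad2 encodes viperin, an enzyme of the endoplasmic reticulum that makes a chain-terminating nucleotide. Its locus, with 4 peaks, had 38.5, 25.6, 33.7 and 26.0 CPM in HET CC, against 15.6, 12.1, 12.6 and 13.0 CPM in HET CB. In WT it had 27.2, 35.3, 35.5 and 40.0 CPM in CC, against 13.4, 14.1, 13.7 and 12.5 CPM in CB. Every CC library lay above every CB library, with a log2 ratio of 1.20 in HET (SE 0.12, edgeR adjusted p = 2.01e-11) and 1.36 in WT (SE 0.13, 9.04e-12). The peak at the start, whose middle lies 15 bases before it, covers the whole window printed above. This peak rose to 18.4, 12.01, 18.9 and 11.2 CPM in HET CC, against 6.58, 4.76, 5.56 and 5.33 CPM in HET CB (log2 1.43, adjusted p = 8.4e-12). In WT the same peak stood at 14.7, 16.2, 20.6 and 24.4 CPM in CC, against 5.18, 5.62, 6.10 and 4.96 CPM in CB (log2 1.80, adjusted p = 1.23e-13). The other 3 Rsad2 peaks were higher in CC in both genotypes as well. Cmpk2, the neighbour of Rsad2 and a mitochondrial nucleotide kinase, rose by less (log2 0.44 in HET, adjusted p = 0.000171, and 0.41 in WT, adjusted p = 0.00139).

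Rtp4 encodes a chaperone of membrane receptors. Its locus had 17.2, 21.1, 25.3 and 18.9 CPM in HET CC, against 10.3, 7.92, 9.76 and 9.19 CPM in HET CB, and 22.6, 15.98, 20.8 and 20.4 CPM in WT CC, against 9.87, 11.4, 11.4 and 8.48 CPM in WT CB. The groups did not overlap in either genotype (log2 1.15 in HET, adjusted p = 9.43e-10, and 0.96 in WT, adjusted p = 5.73e-07). Its peak at chr16:23609556-23610056 changed most (log2 2.46 in HET and 2.06 in WT). All 3 Rtp4 peaks lie inside the annotated span, which is long, and their nearest listed starts belong to other genes. Samd9l, a restriction factor of poxviruses, has 13 peaks and rose at the locus level (log2 0.29 in HET, adjusted p = 7.6e-05, and 0.37 in WT, adjusted p = 1.09e-05). Ifit2, which binds viral RNA, rose by 0.26 in HET and 0.36 in WT on the log2 scale. Sp100, a nuclear body protein, rose by 0.16 in HET and 0.25 in WT. Helz2, a helicase, was lower in CC in both genotypes (log2 -0.30 in HET and -0.23 in WT, where the call was lost without WT CC replicate 2, adjusted p = 0.0721). Bst2, or tetherin, which holds virions at the cell surface, was lower in WT (log2 -0.23, adjusted p = 0.0245) and stood at 0.03 in HET (adjusted p = 0.727). The WT call of Bst2 was lost without WT CC replicate 2 or 4 or WT CB replicate 3, at equal depth, with every library thinned to the smallest total (adjusted p = 0.306), and with a scaling that follows the level of each feature (log2 -0.13, adjusted p = 0.195). Isg20, an exonuclease, was lower in HET (log2 -0.18, adjusted p = 0.0127) and stood at -0.16 in WT (adjusted p = 0.0533), and at equal depth the HET call was lost (log2 -0.16, adjusted p = 0.129). Xaf1, a pro-apoptotic factor with 1 peak, stood at 0.18 in HET and 0.16 in WT, and neither passed.

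**Figure D2:**
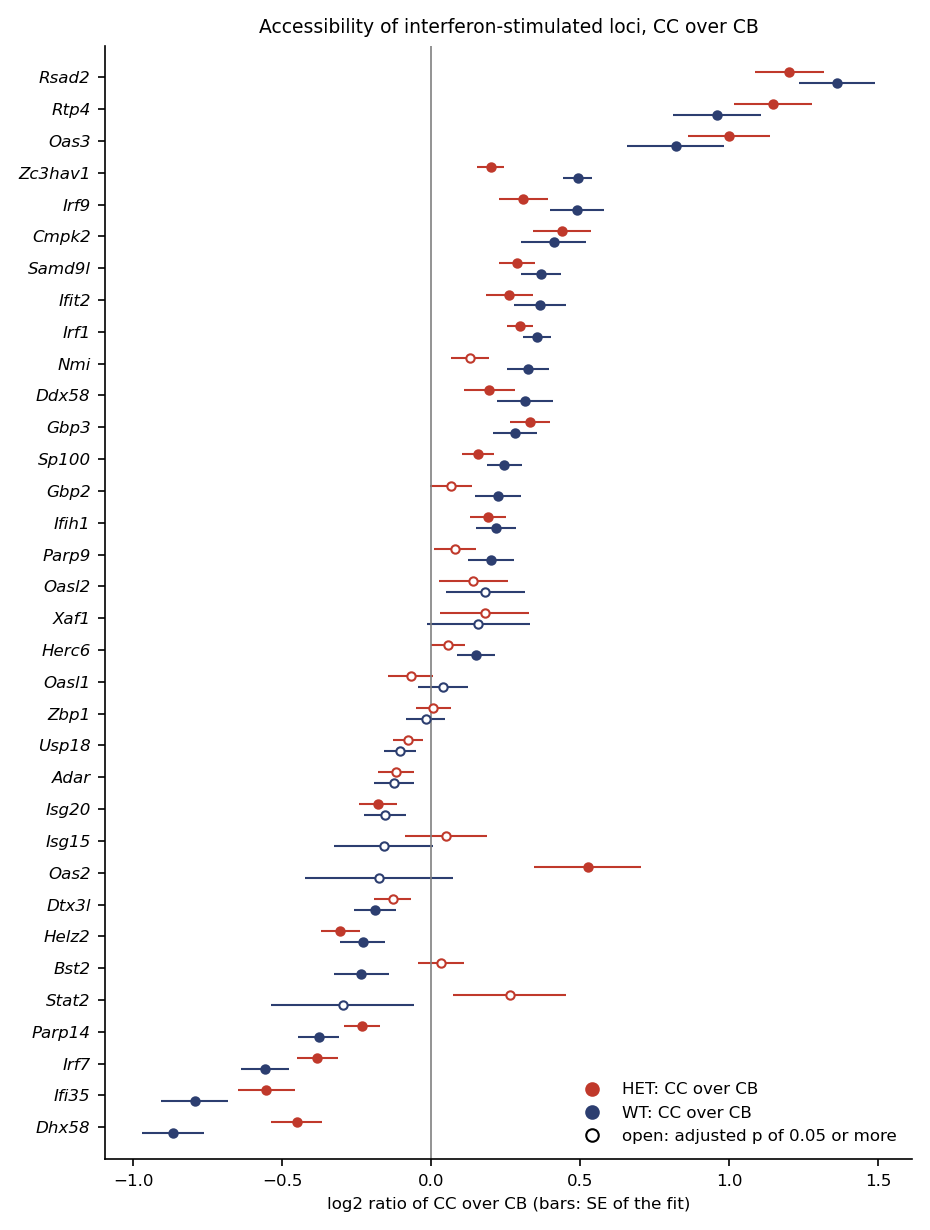
Log2 ratio of CC over CB at each of the 34 member loci, with HET above WT for each gene, ordered by the WT value. Bars are the SE derived from the test and open circles are loci with an adjusted p of 0.05 or more. Rsad2, Rtp4 and Oas3 lie farthest to the right and Dhx58, Ifi35 and Irf7 to the left in both genotypes.

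The OAS family makes 2'-5' oligoadenylates, which activate RNase L. Oas3 rose to 13.4, 16.9, 17.1 and 15.0 CPM in HET CC, against 8.28, 8.19, 7.88 and 6.95 CPM in HET CB (log2 1.00, SE 0.14, edgeR adjusted p = 6.94e-08). In WT it had 12.3, 18.7, 15.6 and 9.36 CPM in CC, against 7.25, 7.69, 7.96 and 8.63 CPM in CB (log2 0.82, SE 0.16, adjusted p = 3.72e-05). Neither genotype showed an overlap between CC and CB. With peaks within 1 kb of a gene end only, the WT value was 0.37 (adjusted p = 0.353). Within Oas3 the peaks went in different ways. A peak 2146 bases inside the gene rose with a log2 ratio of 1.88 in both genotypes, the peak at the start stood at 1.04 in HET and 0.48 in WT (adjusted p = 0.21), and a peak 15614 bases inside stood at -0.39 in HET (adjusted p = 0.244) and -1.64 in WT. Oas2 rose in HET only by the test (log2 0.53, adjusted p = 0.0106, against -0.17 in WT, adjusted p = 0.555), and the interaction between genotype and cell label did not pass (0.70, adjusted p = 0.305). Oasl1 and Oasl2, which resemble OAS proteins, did not pass in either genotype, with log2 ratios from -0.07 to 0.18. Genes of these families are similar in sequence, and the treatment of reads that map to several places is not stated in the sources used.

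The transcription factors of the response did not move together. Irf1, which drives interferon and antigen presentation genes, had 278, 257, 249 and 242 CPM over its 15 peaks in HET CC, against 208, 208, 210 and 206 CPM in HET CB. In WT it had 274, 302, 287 and 277 CPM in CC, against 228, 213, 233 and 216 CPM in CB. Both genotypes were higher in CC without overlap (log2 0.30 in HET, adjusted p = 2.11e-07, and 0.36 in WT, adjusted p = 1.49e-08). With peaks within 1 kb of a gene end only, Irf1 stood at 0.10 in HET (adjusted p = 0.156). Irf9, a DNA-binding part of the complex that binds the ISRE, has a single peak at its start. It had 44.4, 36.4, 48.0 and 40.7 CPM in HET CC, against 35.2, 32.0, 34.7 and 33.9 CPM in HET CB, and 51.3, 40.1, 47.3 and 51.4 CPM in WT CC, against 32.2, 31.9, 37.1 and 34.4 CPM in WT CB. It rose in both genotypes (log2 0.31 in HET, adjusted p = 0.00131, and 0.49 in WT, adjusted p = 1.46e-05). Irf7, the factor that amplifies type I interferon, went the other way. It had 51.6, 69.3, 58.4 and 68.1 CPM in HET CC, against 77.0, 82.1, 80.9 and 84.3 CPM in HET CB, and 57.6, 54.0, 53.7 and 44.0 CPM in WT CC, against 79.9, 76.0, 78.4 and 74.0 CPM in WT CB. Both genotypes were lower in CC without overlap (log2 -0.38 in HET, adjusted p = 8.95e-06, and -0.56 in WT, adjusted p = 1.54e-07). The Stat2 locus, with 1 peak and group means of 3.79 to 4.95 CPM, did not pass (log2 0.26 in HET, adjusted p = 0.228, and -0.30 in WT, adjusted p = 0.281).

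The peaks around Irf1 moved in both directions. In HET cells 8 of its 15 peaks were higher in CC and 2 were lower, and in WT cells 7 were higher and 2 were lower. The peak 16343 bases past the start had the lowest levels in CB of the 15, with 6.36, 6.07, 5.85 and 7.61 CPM in HET CC, against 1.41, 0.906, 0.662 and 0.856 CPM in HET CB, and 5.56, 8.83, 5.64 and 6.29 CPM in WT CC, against 0.740, 0.910, 1.40 and 1.25 CPM in WT CB. Its log2 ratio was 2.77 in HET (SE 0.26, adjusted p = 1.32e-13) and 2.60 in WT (SE 0.29, adjusted p = 3e-11). Its mean in WT CB was 1.07 CPM, and low peaks rose in general. Over all peaks of the series the median log2 ratio at 0.997 CPM was 2.02 in HET and 2.00 in WT. Peaks 6514 bases before and 24496 bases past the start rose with larger levels (log2 0.58 and 0.93 in HET, 0.79 and 0.85 in WT). The peak farthest out, 50162 bases past the start, was lower in CC, at 3.78, 3.83, 2.64 and 6.05 CPM in HET CC, against 9.81, 7.82, 9.40 and 7.93 CPM in HET CB, and 3.61, 2.06, 4.51 and 4.38 CPM in WT CC, against 11.2, 10.4, 8.91 and 9.48 CPM in WT CB (log2 -1.08 in HET and -1.45 in WT). The peak 13020 bases past the start fell by 0.81 in HET and 0.79 in WT on the log2 scale. The start itself carried a pair of peaks, of which the upstream one rose (log2 0.32 in HET and 0.50 in WT) and the downstream one did not pass (log2 -0.10 in HET and 0.19 in WT). Only 1 of the 15 peaks lies inside the gene, so most of them could act on other genes.

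**Figure D3:**
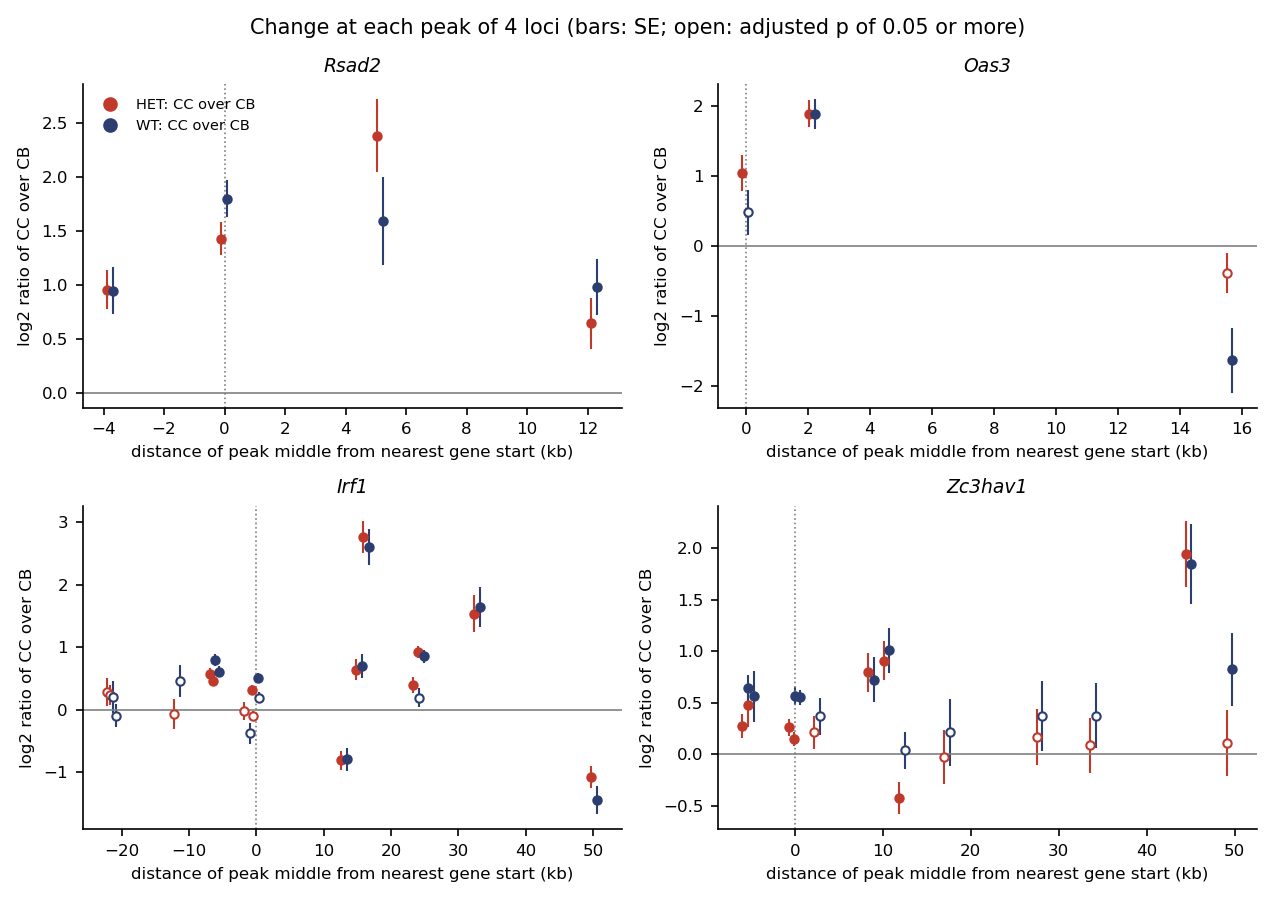
Log2 ratio of CC over CB at each peak of Rsad2, Oas3, Irf1 and Zc3hav1 against the distance of its middle from the nearest start of the gene, with HET in red and WT in blue; bars are the SE and open circles peaks with an adjusted p of 0.05 or more. All 4 Rsad2 peaks lie above 0, whereas Irf1 has peaks from 2.77 down to -1.45.

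Of the nucleic acid sensors, 2 of 5 were higher and 1 was lower in CC in each genotype. Of all loci, 31.1% were higher and 31.7% lower in HET, and 31.6% and 31.7% in WT, so these counts lie near the background. Ddx58 encodes RIG-I and Ifih1 encodes MDA5, which detect viral RNA and signal through MAVS. Ddx58 rose by 0.20 in HET (adjusted p = 0.0424) and 0.32 in WT (adjusted p = 0.00371), and Ifih1 by 0.19 in HET and 0.22 in WT, all on the log2 scale. In HET the Ddx58 libraries overlapped: HET CC replicate 4 had 36.6 CPM, against 42.9 to 46.1 CPM in HET CB. The Ddx58 call was not checked with single libraries left out. Dhx58 encodes LGP2, a relative of RIG-I and MDA5 that lacks the signaling domain and modulates both. Its locus, with 5 peaks inside the gene, had 39.6, 47.1, 44.7 and 50.1 CPM in HET CC, against 62.2, 62.1, 60.7 and 64.1 CPM in HET CB, and 33.8, 22.6, 49.6 and 32.4 CPM in WT CC, against 64.3, 60.4, 64.8 and 63.0 CPM in WT CB. Every CC library lay below every CB library (log2 -0.45 in HET, adjusted p = 2.43e-05, and -0.87 in WT, adjusted p = 3.96e-09), although the WT CC libraries were spread widely. With peaks within 1 kb of a gene end only, the HET value of Dhx58 was -0.27 (adjusted p = 0.0672). Zbp1, a sensor of Z-form nucleic acids, and Adar, an RNA editing enzyme, did not pass in either genotype, with log2 ratios from -0.12 to 0.01.

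Among the modifiers of the response, Ifi35 fell and its partner Nmi did not follow it. Ifi35 had 27.8, 27.2, 23.9 and 25.8 CPM in HET CC, against 38.1, 40.1, 36.7 and 39.1 CPM in HET CB, and 20.4, 17.2, 33.5 and 21.3 CPM in WT CC, against 40.7, 37.5, 42.0 and 39.7 CPM in WT CB (log2 -0.55 in HET, adjusted p = 3.86e-06, and -0.79 in WT, adjusted p = 1.12e-07). Nmi, which binds STAT proteins and IFI35, was higher in WT CC (log2 0.33, adjusted p = 0.000112) and stood at 0.13 in HET (adjusted p = 0.0772). The WT value of Nmi was 0.13 with peaks within 1 kb of a gene end only (adjusted p = 0.197). Herc6, an ISG15 ligase in mice, was higher in WT (log2 0.15, adjusted p = 0.0343) and stood at 0.06 in HET. Isg15, the ubiquitin-like modifier itself, did not differ beyond its spread: its only peak, beside the 3 cores printed above, gave the locus 9.85, 9.86, 12.3 and 8.65 CPM in HET CC, against 11.5, 9.02, 9.27 and 9.38 CPM in HET CB, and 10.0, 8.44, 9.10 and 8.51 CPM in WT CC, against 8.76, 10.7, 10.8 and 10.1 CPM in WT CB (log2 0.05 in HET, SE 0.14, and -0.16 in WT, SE 0.17). Usp18, the protease that removes ISG15, has 10 peaks and stood at -0.08 in HET and -0.10 in WT. The ADP-ribosyltransferase Parp14 was lower in CC (log2 -0.23 in HET, adjusted p = 0.00101, and -0.38 in WT, adjusted p = 1.01e-05). Its neighbours Parp9 (0.08 in HET, 0.20 in WT) and Dtx3l (-0.13 in HET, -0.19 in WT), which form a ubiquitin ligase together, passed in WT only, in opposite directions. The annotated spans of Parp9 and Dtx3l overlap. A peak in both spans went to the gene with the nearer span end, so the division of peaks between them may depend on that rule. The Dtx3l call was lost without WT CC replicate 2 (adjusted p = 0.118) or 3 (0.0547) and at equal depth (0.0574). The guanylate-binding proteins Gbp2 and Gbp3 are GTPases that attack pathogen vacuoles and respond mostly to type II interferon. Gbp3 rose in both genotypes (log2 0.33 in HET and 0.28 in WT), and Gbp2 passed in WT only (0.22, adjusted p = 0.0114, against 0.07 in HET). A call in 1 genotype and not in the other is not a difference between genotypes, and the interaction did not pass for any locus named in this paragraph.

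Over single peaks, 57 of 162 were higher in CC and 21 lower in HET cells (background 58.8%, with 30.8% higher and 28.1% lower), and 59 were higher and 27 lower in WT cells (background 57.9%, with 30.2% higher and 27.7% lower). The members' shares were 35.2% higher and 13% lower in HET, and 36.4% higher and 16.7% lower in WT. Both genotypes called 47 peaks higher and 18 lower, and the same overlap over all peaks was not counted. Of 43 member peaks within 1 kb of a start of their own gene, 17 were higher and 8 lower in HET (28.6% and 28.9% of all such peaks), and 18 were higher and 7 lower in WT (33.7% and 23.6%). Of 85 member peaks farther out, 34 were higher and 6 lower in HET (28.7% and 29.2% of all such peaks), and 35 were higher and 11 lower in WT (26.9% and 30.2%). The remaining peaks belong to genes without a start in the promoter table.

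The peaks nearest to a start mostly followed their locus. At Irf9 the peak 79 bases past the start rose (log2 0.34 in HET and 0.55 in WT), and so did the Ifit2 peak 70 bases before the start (0.46 in HET and 0.68 in WT), the Cmpk2 peak 72 bases past it (0.60 in HET and 0.59 in WT), the Samd9l peak 82 bases past it (0.52 in HET and 0.83 in WT) and the Gbp3 peak 184 bases past it (0.31 in both). At Ifi35 the peak 13 bases before the start was lower in CC (log2 -0.55 in HET and -0.60 in WT), as was the Irf7 peak 363 bases past the start (-0.44 in HET and -0.38 in WT). The Helz2 peak 34 bases past the start was lower in HET (log2 -0.36) and stood at -0.20 in WT (adjusted p = 0.0821). At Nmi the start peak, 248 bases in, stood at -0.03 in HET (adjusted p = 0.802) and 0.24 in WT (adjusted p = 0.0204), while a second Nmi peak 927 bases past the start rose in both (0.60 in HET and 0.87 in WT). The Samd9l start peak lost its HET call without HET CC replicate 3 (log2 0.39, adjusted p = 0.115), and that of Nmi its WT call without WT CC replicate 1 (adjusted p = 0.1) or 2 (0.0551). At Dtx3l, lower in WT as a sum, the peak 31445 bases past the start was higher in CC (log2 2.53 in HET and 2.56 in WT), at a level of 0.667 CPM in WT CB. The start peak stood at -0.17 in HET and -0.23 in WT, where the call was lost without WT CC replicate 2 or 3 or WT CB replicate 2 or 4 and at equal depth (adjusted p = 0.225). The Samd9l peak 58453 bases past its start, downstream of the gene, rose with a log2 ratio of 1.52 in HET and 1.80 in WT, and the Zc3hav1 peak 44754 bases past the start with 1.95 in HET and 1.85 in WT. Both peaks were below 1 CPM in CB. The median log2 ratio over all peaks of the series was 2.50 in HET and 2.52 in WT at 0.597 CPM, and 2.02 in HET and 2.00 in WT at 0.997 CPM, so the values at Dtx3l, Samd9l and Zc3hav1 are about those of all peaks at such a level, or less. With a scaling that follows the level of each peak, the Samd9l peak stood at 0.28 in HET (adjusted p = 0.462) and 0.53 in WT (adjusted p = 0.184), and the Zc3hav1 peak at 0.51 in HET (adjusted p = 0.158). Dhx58 and Parp14 have no start in the promoter table. Their most clearly changed peaks were lower in CC, at chr11:100702930-100703430 for Dhx58 (log2 -0.67 in HET and -1.08 in WT) and at chr16:35871974-35872474 for Parp14 (-0.52 in HET and -0.54 in WT). The Parp14 peak lost its call in HET at equal depth (adjusted p = 0.0507) and in WT with level-dependent scaling (log2 -0.23, adjusted p = 0.174). The Bst2 peak 15 bases before the start, which overlaps the cores printed above, stood at 0.06 in HET (adjusted p = 0.54) and -0.17 in WT (adjusted p = 0.125). The Isg20 peak 838 bases before the start was lower in HET (log2 -0.35, adjusted p = 0.00313, but -0.18 and 0.128 with level-dependent scaling) and stood at -0.17 in WT, and the single Stat2 peak stood at 0.29 in HET and -0.24 in WT, without passing.

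The change of a peak from CB to CC went with its level. All peaks of the series were cut into 4 classes of equal size by their mean level in WT CB. In the lowest class, up to 2.91 CPM, the median log2 ratio of CC over CB was 0.47 over 34 member peaks and 1.09 over all peaks in HET, and 0.86 and 1.13 in WT. In the class from 2.91 to 6.77 CPM the medians were 0.29 over 45 member peaks and 0.01 over all peaks in HET, and 0.22 and -0.08 in WT. In the class from 6.77 to 16.6 CPM they were 0.08 over 48 member peaks and -0.28 over all peaks in HET, and 0.05 and -0.34 in WT. In the highest class they were 0.00 over 35 member peaks and -0.11 over all peaks in HET, and 0.15 and -0.07 in WT. Member peaks thus lay below all peaks in the lowest class and above them in the other 3, as a description with no test. The WT CB level that sorts the peaks also enters the WT ratio. With a scaling that follows the level of each peak, the loci counted 14 higher and 6 lower in HET and 17 higher and 7 lower in WT. These are not all the same loci: in WT, Bst2 lost its call and Stat2 gained one (log2 -0.54, adjusted p = 0.0455).

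**Figure D4:**
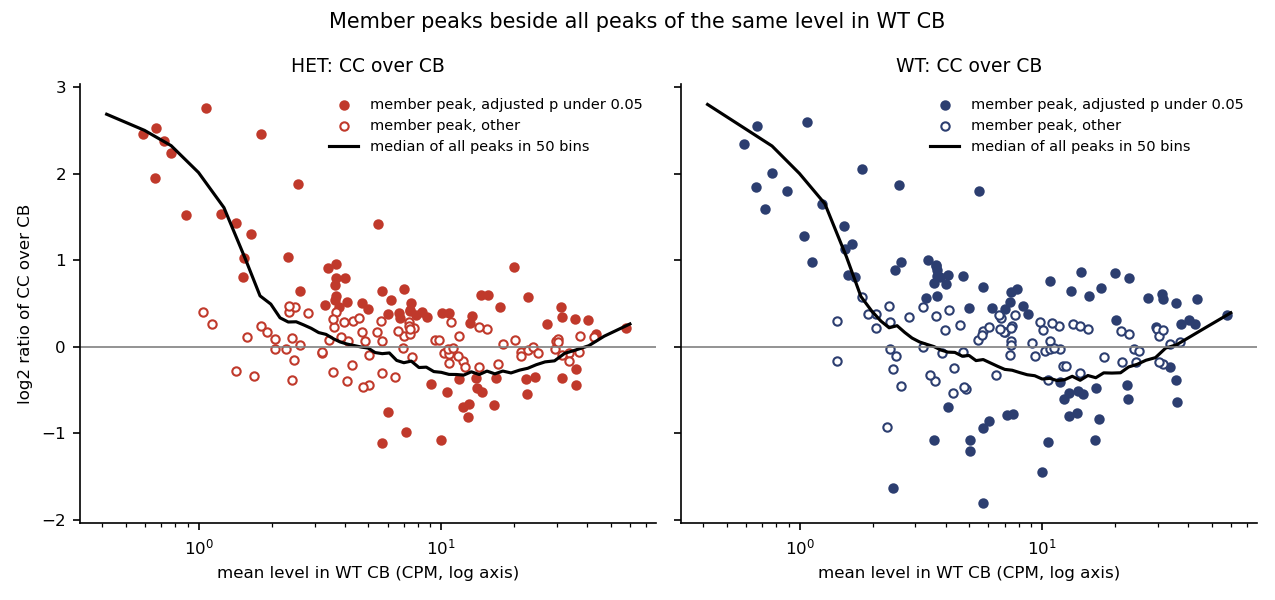
Log2 ratio of CC over CB at each of the 162 member peaks against its mean level in WT CB on a log axis, HET on the left and WT on the right; filled points passed the test and the black line is the median of all peaks of the series in 50 bins of level. The line is high at the lowest levels, where many member peaks that rose also lie, and below 0 in the middle range.

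Counts of calls in lists of cell type markers, CC over CB, are given here as measured. Of all loci, 31.1% were higher and 31.7% lower in CC in HET, and 31.6% and 31.7% in WT. Counts near these shares do not set a list apart, and no list was tested as a whole. Of 10 T cell marker loci with a peak, 9 were higher in CC and 0 lower in HET, and 9 were higher and 1 lower in WT. Their summed level was 399.4 to 523.4 CPM in HET CC, 533.5 to 611 CPM in WT CC, 225.5 to 231.8 CPM in HET CB and 254.6 to 259.3 CPM in WT CB. Of 7 NK cell markers, 5 in HET and 4 in WT were higher in CC and 0 lower, and of 7 myeloid markers 5 were higher in each genotype, with 1 lower in HET and 2 in WT. Of 8 germinal center B cell markers, 7 were lower in CC in each genotype and 1 was higher in HET, with sums of 897.2 to 1121 CPM in HET CC, 750 to 883.9 CPM in WT CC, 1422 to 1451 CPM in HET CB and 1430 to 1475 CPM in WT CB. No marker locus had a library at 0. Of 5 naive follicular B cell markers, 4 in HET and 3 in WT were higher in CC and 1 lower in each. Of 6 general B lineage markers, 5 in HET and 4 in WT were lower, of 6 dark zone markers 5 were lower in each genotype, and of 6 plasma cell markers 4 were lower in each, with 1 higher in HET and 2 in WT. Light zone markers, which name the cells read as centrocytes, were split, with 1 of 6 higher and 2 lower in HET and 2 higher and 3 lower in WT. Of 6 plasmacytoid dendritic cell markers, 4 were higher and 2 lower in each genotype. Interferon-stimulated genes are used by all of these cell types, and the part of other cells in the member results was not tested. In bulk chromatin, a change in the number of cells of a type and a change in accessibility per cell cannot be told apart.

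Between genotypes in CC, 2 member loci were higher and 2 lower in HET, which is 4 of 34 (11.8%) beside 6.65% of all loci (3.22% higher, 3.43% lower), so few that the shares cannot be ranked. Zc3hav1 encodes ZAP, which binds CpG-rich viral RNA. Its locus, with 13 peaks, had 155, 154, 148 and 142 CPM in HET CC, against 179, 175, 187 and 184 CPM in WT CC, and the groups did not overlap (log2 -0.27, SE 0.052, edgeR adjusted p = 0.00171). In CB it had 129, 135, 127 and 131 CPM in HET, against 132, 123, 130 and 130 CPM in WT, which overlap (log2 0.02, adjusted p = 0.923). The interaction (the HET effect in CC less the one in CB) was -0.29 (SE 0.066, adjusted p = 0.0312), the only member locus called in the interaction, in which 0.412% of all loci were called (0.352% higher, 0.0598% lower). At Zc3hav1 the rise in CC was thus smaller in HET (log2 0.20, adjusted p = 0.000229) than in WT (0.49, adjusted p = 2.16e-11). Of the 13 Zc3hav1 peaks 1 was called between genotypes in CC, and their log2 ratios ran from -0.58 to 0.20. The called peak, 280 bases inside the gene, had 56.1, 53.3, 45.3 and 48.6 CPM in HET CC, against 62.5, 62.1, 66.5 and 64.6 CPM in WT CC (log2 -0.33, adjusted p = 0.0194). The peak 287 bases before the start had the same log2 ratio (-0.33) with an adjusted p of 0.0548. The peak inside the gene had 44.8, 48.7, 44.6 and 45.5 CPM in HET CB, against 43.0, 42.9, 42.4 and 45.7 CPM in WT CB. The call of the peak inside the gene was lost without HET CC replicate 4 (adjusted p = 0.0717), with level-dependent scaling (log2 -0.25, 0.0791) and with only the groups compared (0.119). Without any 1 CC library the locus call in CC held (log2 -0.29 to -0.25, adjusted p = 0.000996 to 0.0114), and with peaks within 1 kb of a gene end only it stood at -0.31 (adjusted p = 0.0673). The interaction call was lost without HET CC replicate 2 or 4, WT CC replicate 3, HET CB replicate 1, 2 or 4, or WT CB replicate 2, 3 or 4 (log2 -0.31 to -0.27 over all 16 libraries left out in turn, highest adjusted p = 0.0842). In the same interaction, 5 of 8 germinal center B cell markers were higher and 0 lower, with a median of 0.45, and no locus of the other marker lists passed; their part in the Zc3hav1 result was not tested. The HET effect in CC and the CC effect in WT share the WT CC libraries, so they are not independent of each other.

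The other 3 calls between genotypes in CC were close to the threshold. Irf1 had 278, 257, 249 and 242 CPM in HET CC, against 274, 302, 287 and 277 CPM in WT CC, which overlap (log2 -0.15, SE 0.048, adjusted p = 0.0471), and 0 of its 15 peaks passed. In the interaction the Irf1 locus stood at -0.06 (edgeR adjusted p = 0.765), without passing. Dhx58 had 39.6, 47.1, 44.7 and 50.1 CPM in HET CC, against 33.8, 22.6, 49.6 and 32.4 CPM in WT CC (log2 0.39, SE 0.12, adjusted p = 0.0392). WT CC replicate 3 lay within the HET range, and WT CC replicate 2 was the lowest. Oas2 had 7.52, 9.86, 9.80 and 7.67 CPM in HET CC, against 6.31, 2.41, 3.23 and 6.53 CPM in WT CC, without overlap but at a low level (log2 0.91, SE 0.26, adjusted p = 0.0306). The Irf1 call was lost without HET CC replicate 2, 3 or 4 or WT CC replicate 2, 3 or 4 (log2 -0.19 to -0.12, highest adjusted p = 0.172). That of Dhx58 was lost without HET CC replicate 2 or 4 or WT CC replicate 1, 2 or 4 (0.24 to 0.62, highest adjusted p = 0.222), and that of Oas2 without HET CC replicate 2 or 4 or WT CC replicate 2 or 3 (0.70 to 1.12, highest adjusted p = 0.129). The peaks called between genotypes in CC, 2 higher and 1 lower of 162 (1.85%, background 2.06%, with 1.08% higher and 0.979% lower), were the Zc3hav1 peak above, a peak of Dhx58 at chr11:100702404-100702904 and the Irf7 peak 1163 bases inside the gene. The Dhx58 peak had 14.1, 15.0, 13.2 and 15.99 CPM in HET CC, against 8.89, 7.36, 13.0 and 9.30 CPM in WT CC (log2 0.60, adjusted p = 0.0402). The Irf7 peak had 26.7, 37.2, 27.8 and 30.3 CPM in HET CC, against 26.4, 22.4, 23.1 and 20.5 CPM in WT CC (log2 0.41, adjusted p = 0.0396). The Dhx58 peak lost its call without HET CC replicate 2 or 4 or WT CC replicate 1, 2 or 4 (highest adjusted p = 0.14), and the Irf7 peak without HET CC replicate 2 or 4 or WT CC replicate 2, 3 or 4 (highest adjusted p = 0.223). The Irf7 locus as a whole stood at 0.25 (adjusted p = 0.0854, but 0.0159 without HET CC replicate 1), Irf9 at -0.18 (adjusted p = 0.301) and Stat2 at 0.39 (adjusted p = 0.42). DESeq2 also called the Irf7 locus higher (log2 0.24, adjusted p = 0.0478). So did edgeR with a term for odd and even replicate numbers (0.24, adjusted p = 0.0421). The other alternatives did not call it.

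**Figure D5:**
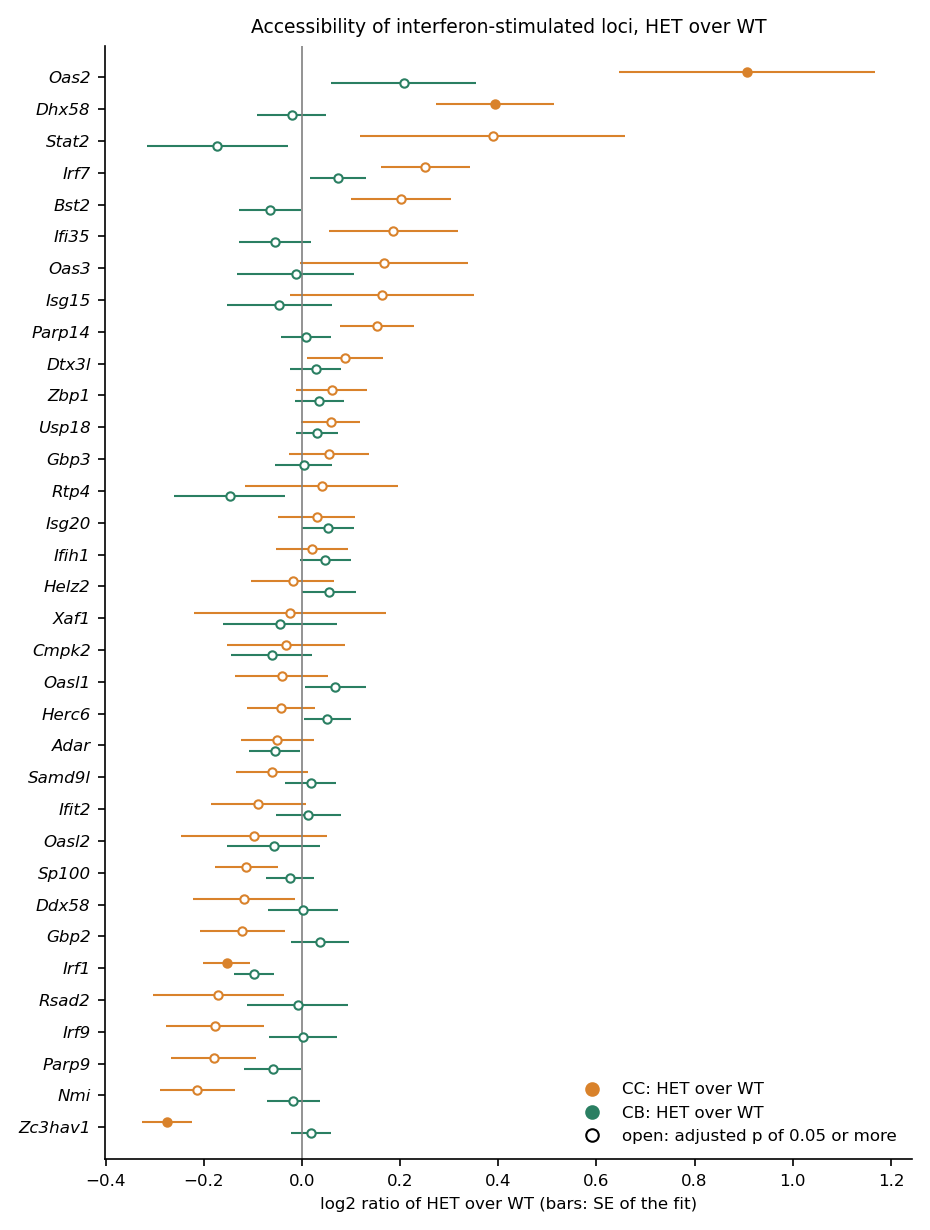
Log2 ratio of HET over WT at each of the 34 member loci, with CC (orange) above CB (green) for each gene, ordered by the CC value; bars are the SE and filled circles passed the test. Oas2, Dhx58, Irf1 and Zc3hav1 are filled in CC, and every CB value lies between -0.17 and 0.21.

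Some marker lists differed between genotypes in CC, where 3.22% of all loci were higher and 3.43% lower in HET. Of 10 T cell markers, 5 were lower in HET CC than in WT CC and 0 higher. Of 5 naive follicular B cell markers 3 were lower, and of 8 germinal center B cell markers 5 were higher. Of 7 NK cell, 6 plasmacytoid dendritic cell and 6 B lineage markers, 0 were called. Myeloid (7) and dark zone (6) markers had 1 higher and 0 lower each. Plasma cell (6) and light zone (6) markers had 1 higher and 1 lower each. Summed naive markers stood at 619.6 to 723.9 CPM in HET CC and 745.5 to 881.2 CPM in WT CC. Their part in the Zc3hav1, Irf1, Dhx58 and Oas2 results was not tested. In CB, 0 of 34 member loci and 0 of 162 member peaks were called between genotypes by edgeR, beside 0.558% of all loci (0.0332% higher, 0.525% lower) and 0.129% of all peaks (0.00243% higher, 0.127% lower), and DESeq2 called 0 of either. At an unadjusted p below 0.05 there were 1 locus and 3 peaks. With a term for odd and even replicate numbers in the fit, Irf1 was called lower in HET CB (log2 -0.10, adjusted p = 0.0313). The 3 loci with the smallest p were Irf1 (log2 -0.10, SE 0.041, adjusted p = 0.383), Oas2 (0.21, SE 0.15, adjusted p = 0.696) and Rtp4 (-0.15, SE 0.11, adjusted p = 0.722). Irf1 had 206 to 209.8 CPM in HET CB and 213.1 to 232.8 CPM in WT CB, without overlap. Irf7 stood at 0.07, Irf9 at 0.00 and Stat2 at -0.17 on the log2 scale. The member loci ranged from -0.17 to 0.21 with a median SE of 0.059. In the interaction, 0 of 162 member peaks passed by edgeR (background 0.159%, with 0.128% higher and 0.0316% lower), 14 had an unadjusted p below 0.05, and DESeq2 called 1 higher and 1 lower. The shares of all features at an unadjusted p, or called by DESeq2, were not counted. Those counts of members thus have no background.

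Further genes of the pathway give the setting. Of 29 loci of interferon ligands, receptors and signaling with a peak, 11 were higher and 8 lower in CC in HET, and 13 were higher and 9 lower in WT. The shares of all loci were 31.1% higher and 31.7% lower in HET and 31.6% and 31.7% in WT, so the counts of lower loci lie near the background. Ifngr1, a chain of the receptor for type II interferon, rose by 0.63 in HET (adjusted p = 1.72e-12) and 0.73 in WT (1.19e-13), Tlr3, a sensor of double-stranded RNA, by 0.79 in HET and 1.02 in WT, and the locus of the ligand Ifnb1 by 1.96 in HET and 1.87 in WT. These values were not set beside those of loci of the same level. Tlr9, a sensor of unmethylated DNA, was lower (log2 -0.47 in HET and -0.52 in WT). Between genotypes in CC, 0 were higher and 3 lower in HET, beside 3.22% and 3.43% of all loci: Irf2 (log2 -0.19, adjusted p = 0.00658), a repressor of interferon genes, Ifng (-0.28, 0.00731), a ligand made mostly by T and NK cells, and Socs3 (-0.24, 0.0367), a feedback inhibitor. Of 46 other interferon-response loci with a peak, 15 were higher and 11 lower in CC in HET, and 17 were higher and 14 lower in WT, to be read against the same shares. Ifitm3, which blocks viral entry, was lower in CC (log2 -1.08 in HET and -1.38 in WT), while Lgals9, a galectin (1.69 in HET and 1.44 in WT), and Gbp4, a guanylate-binding protein (0.86 in HET and 0.93 in WT), were higher. Between genotypes in CC, Ifitm3 was higher in HET (log2 0.38, adjusted p = 0.00851) and Ifi27l2a lower (-0.43, adjusted p = 0.00516). Neither list had a call between genotypes in CB or in the interaction.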

How the data were processed

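Omni-ATAC libraries of 4 groups of 4 were compared. The authors deposited a table of raw counts per peak for all 16 libraries, and each column matched the title of 1 sample. Per the submitters' processing notes, FastQC, BWA, deepTools and R 4.2.1 were used with mm10, but the peak caller and the counting step are not given in the sources used here. Peaks were assigned to genes with the RefSeq spans of GRCm38.p6: 74773 peaks (91.0%) went to 15054 of 21900 protein-coding genes. A gene locus is the sum of its peaks, so it reports open chromatin near a gene and not transcription.

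Counts were fitted with edgeR 4.0.16 in R 4.3.3 (TMM scaling, filterByExpr, which removed 0 peaks and 0 loci, and robust quasi-likelihood fits over all 16 libraries with 1 coefficient per group). The adjusted p is the Benjamini-Hochberg value over all loci or all peaks, and a feature with one below 0.05 is called a change. The 5 comparisons were HET against WT in CC and in CB, CC against CB in HET and in WT, and the interaction (HET over WT in CC, less HET over WT in CB). SE was derived from the test, as the absolute log2 ratio divided by the square root of its quasi-likelihood F statistic. CPM of loci and of peaks are scaled to different totals, since not every peak has a gene, so the CPM of a locus with a single peak exceeds that of the peak. The procedure was run on simulated counts of loci with known changes in HET CC only. These counts held no difference between odd and even replicate numbers and no shift by level, so the simulation cannot speak to either. Precision is limited by the shallow CC libraries, whose member loci held as few as 8 counts and member peaks as few as 0 in a library, and counts of PCR-amplified fragments are not independent molecules.

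The members and the gene lists were chosen with earlier results of these data known. Named were up to 8 members per direction with the smallest p among the called loci of a comparison, every member called between genotypes or in the interaction, Irf1, Irf7, Irf9 and Stat2, and for each its most clearly changed peak and the peak nearest to its start; with no call, the 3 members of smallest p. Other members were added for completeness of their role after their values were seen. Alternatives covered scaling, the tool (DESeq2 1.42.0), filters on low counts, the libraries in the fit, a replicate block, odd and even replicate numbers, equal depth, the distance allowed between peak and gene, and leaving out each library. Motifs were counted with Python 3.11.15 as exact matches.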

Additional observations from a re-analysis of the deposited data

Results flagged for a closer look

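The HET effect at the Zc3hav1 locus differed between cell labels by the test of the difference itself: the effect in CC less the one in CB was -0.29 on the log2 scale (SE 0.0658, edgeR adjusted p = 0.0312). The HET mean was 149.8 CPM and the WT mean 181.3 CPM in CC, against 130.5 CPM in HET and 128.9 CPM in WT in CB, and 4 of 4 HET CC libraries lay below every WT CC library. In 9 of the 16 fits that leave out 1 library the call was lost.

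Single libraries stood apart from the other 3 of their group in 8 of 272 groups of member loci and named peaks, where chance alone gives about 1 in 20 by Dixon's test. The Isg15 locus had 11.5 CPM in HET CB replicate 1, against 9.02 to 9.38 CPM in the other 3. Usp18 had 97.1 CPM in HET CC replicate 3, against 109.0 to 109.7 CPM in the others. Parp9 had 52.1 CPM in HET CC replicate 2, against 43.4 to 44.7 CPM. Xaf1 had 11.6 CPM in WT CC replicate 4, against 7.84 to 8.22 CPM. The Oas3 peak at the start had 2.75 CPM in HET CC replicate 1, against 4.72 to 5.12 CPM. In WT CB replicate 4 the far downstream peak of Samd9l had 0.665 CPM, against 0.951 to 0.973 CPM, and the start peak of Samd9l had 4.91 CPM, against 3.71 to 3.89 CPM. The start peak of Isg20 had 31.0 CPM in WT CC replicate 3, against 21.3 to 22.4 CPM.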

How the results depend on the processing

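The CC against CB counts of member loci kept to within 1.5 times under every alternative except that peaks within 1 kb of a gene end gave 11 higher in WT, from fewer peaks. At equal depth, with every library thinned to 3494356 counts, HET cells called 34 member peaks higher and 13 lower in CC. The shares of all features were not counted under the alternatives, so the counts of members here and below have no background. Calls between genotypes were less stable. In CC, 0 loci were higher with only the groups compared, at equal depth and within 1 kb of a gene end. The number lower was 1 with total counts, with level-dependent scaling, with only the groups compared, with the replicate block and at equal depth, and 0 within 1 kb of a gene end. Member peaks higher in HET CC numbered 4 by DESeq2, 1 with level-dependent scaling, with the replicate block and at equal depth, and 0 with only the groups compared; peaks lower numbered 2 with DESeq2 size factors, 6 by DESeq2's own test and 0 with only the groups compared. In the interaction DESeq2 called 1 peak higher and 1 lower, and the Zc3hav1 call was lost at equal depth (-0.27, adjusted p = 0.26) and within 1 kb of a gene end (-0.26, adjusted p = 0.453), leaving 0 loci lower.

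Leaving out each library in turn gave 0 to 3 loci higher and 1 to 2 lower in HET CC, 0 to 3 peaks higher and 0 to 5 lower, and in the interaction 0 to 1 loci higher, 0 to 1 lower and 0 to 1 peaks lower. Over the values and alternatives run, signs turned only where no change was called, apart from 1 peak: the Zc3hav1 start peak in HET, CC over CB, stood at -0.00879 with level-dependent scaling, an alternative chosen after seeing the data. For HET over WT in CB, Irf9 stood at -0.00296 with DESeq2 size factors, -0.00267 by DESeq2, -0.0117 at the locus and -0.00313 at the peak with level-dependent scaling, -0.00542 within 10 kb and -0.0156 within 1 kb, and Oas2 at -0.0456 within 1 kb. Without 1 library, the ranges were -0.0291 to 0.0433 for the Irf9 locus and -0.0155 to 0.0568 for its peak. The Irf7 start peak ranged from -0.0382 to 0.152 in HET over WT in CC and from -0.174 to 0.0252 in the interaction. In HET, CC over CB, the Isg20 start peak stood at 0.0483 with level-dependent scaling and 0.133 at equal depth, and Stat2 at -0.0616 with level-dependent scaling. The cause was not tested.

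No label says what a replicate number shares, and the numbers did not meet the bar for pairing, a correlation over 0.1 in every pair: correlations of same-numbered deviations ran from -0.00283 to 0.0929 between CC and CB and from -0.238 to -0.008 between genotypes. With the replicate block within genotype, 13 loci were higher and 6 lower in HET and 16 higher and 7 lower in WT, CC over CB; in 6 of 8 pairs of CC and CB the closest library had its own number, as a hint from the data. With a term for odd and even numbers, also chosen after seeing the data, HET CC had 5 member peaks lower, HET CB 1 locus lower (Irf1), and the interaction 1 locus higher and 1 peak lower. The Irf7 locus was called higher in HET CC with this term (edgeR adjusted p = 0.0421). Shallow CC libraries limit single peaks.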
